A study of Oryctolagus cuniculus with 16 samples.

Results

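The red cell membrane skeleton genes are 9 genes that encode the protein net under the red cell membrane and the complexes that fasten it there. They were chosen by name as a protein group, but with earlier results of these data known. The members are SPTB, ANK1, SLC4A1, EPB42, RHAG, EPB41, DMTN, ADD2 and TMOD1. All 9 were found among the 20255 genes listed in the deposited table. All 9 were tested, together with 15305 genes in all that passed the filter on low counts.

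In the mature red cell, spectrin tetramers form a hexagonal net whose nodes are short actin filaments. Ankyrin links the net to the anion exchanger band 3 in the lipid bilayer, and protein 4.1, adducin, dematin and tropomodulin hold the actin nodes together. The net gives the red cell its shape and elasticity, and inherited defects in spectrin, ankyrin, band 3, protein 4.2 or protein 4.1 cause hereditary spherocytosis or elliptocytosis. Most of these genes have their highest activity in the maturing red cells of the marrow, although several are also used in muscle, brain or other tissues.

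The rabbit model of Perthes disease, an osteonecrosis of the immature femoral head, was made by surgery. In 8-week-old wild-type rabbits the femoral neck was tied with a suture and the ligamentum teres was cut, which obstructs the blood supply of the epiphysis. Total RNA depleted of ribosomal RNA was sequenced from the femoral head of 5 Perthes rabbits and 3 healthy wild-type control rabbits, 1 library per rabbit. The model is an acute surgical interruption of flow, and neither a sham operation for the controls nor the interval between surgery and sampling was given in the sources used here.

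The libraries held 26757087 to 29461482 counts. Markers of the labelled tissue were present throughout, since chondrocyte markers summed to 39917 CPM (counts scaled to a common library size of 1000000) or more and osteoblast markers to 47915 CPM or more in every library. In the test over all genes, 1356 genes were lower and 951 higher in Perthes, so that 58.8% of the calls were lower, and this share was 71.5% when libraries were scaled by their totals alone. Bulk tissue of the femoral head was sequenced, so that fewer red cell precursors and less RNA in each precursor cannot be told apart in any value below. The p-values measure the spread between these rabbits.

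The levels of all 9 genes were lower in the Perthes femoral heads than in the control femoral heads. For every one of the 9 genes, each Perthes rabbit was below each control rabbit, whereas 13.9% of all tested genes showed this separation in the lower direction. The median log2 fold change of the 9 genes was -2.85, against 0.02 for all tested genes, and 218 of the tested genes were at or below that median. Despite this separation, only ADD2 and EPB41 passed edgeR's quasi-likelihood test at 0.05 after Benjamini-Hochberg adjustment over all genes, that is 2 of 9 members against 8.86% of all tested genes. All 9 had an unadjusted p below 0.05, as had 16.6% of tested genes in the lower direction. The spread among Perthes rabbits was much wider than among controls: the highest Perthes rabbit exceeded the lowest by 2.68-fold (ADD2) to 181-fold (SLC4A1), whereas the controls differed by 1.17-fold (RHAG) to 1.67-fold (TMOD1).

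**Figure D1:**
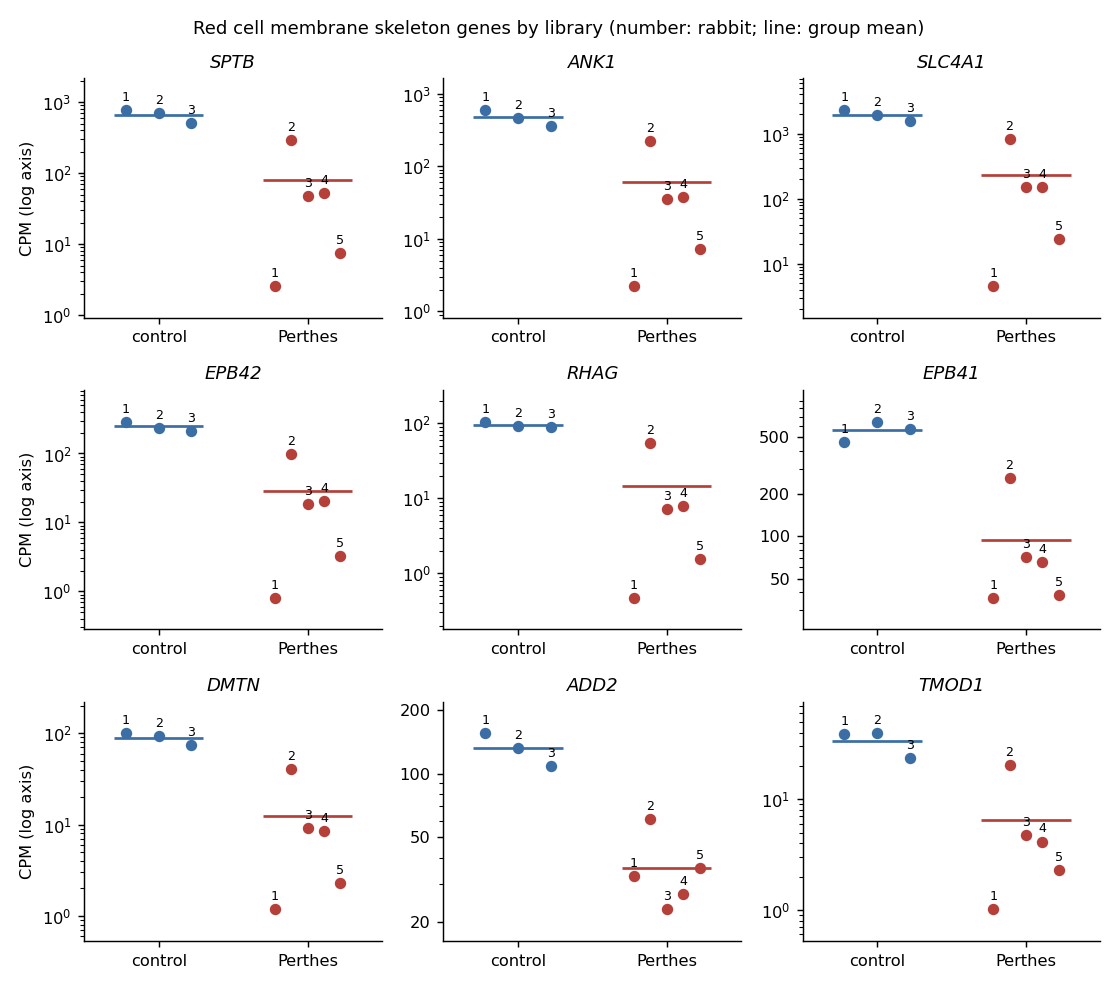
CPM on a log axis for each of the 9 genes, with 1 point per rabbit (3 control rabbits in blue, 5 Perthes rabbits in red, rabbit number above each point) and a line at each group mean. In every panel all Perthes points lie below all control points, and Perthes rabbit 2 is the highest of its group.

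The spectrin net was represented by SPTB, the beta chain of red cell spectrin. In the control rabbits SPTB was at 773, 701 and 505 CPM, and in Perthes rabbits 1 to 5 it was at 2.57, 289, 48.4, 52.9 and 7.49 CPM. Rabbit 2 kept a level nearest to the controls, and rabbit 1 was lowest. The group means were 659.7 ± 139 CPM (SD, n = 3) in controls and 80.1 ± 119 CPM (SD, n = 5) in Perthes, and the log2 fold change of -3.04 (SE 1.16) had an edgeR adjusted p of 0.106.

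Ankyrin, encoded by ANK1, fastens beta spectrin to band 3. ANK1 was at 593, 456 and 359 CPM in controls and at 2.23, 223, 35.7, 38.2 and 7.32 CPM in Perthes rabbits 1 to 5. The control mean was 469 ± 118 CPM (SD, n = 3) and the Perthes mean 61.3 ± 91.8 CPM (SD, n = 5), with a log2 fold change of -2.94 (SE 1.12) and an edgeR adjusted p of 0.108. The Perthes rabbits differed among themselves by 99.97-fold and did not reach the controls, whose lowest value was 1.61 times the highest Perthes value.

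SLC4A1 encodes band 3, the chloride and bicarbonate exchanger that is the main integral protein of the red cell membrane. It was at 2296, 1902 and 1560.3 CPM in controls and at 4.53, 819, 149, 149 and 23.9 CPM in Perthes rabbits 1 to 5. Rabbits 3 and 4 had the same level to 3 digits, and rabbit 1 was far below the other animals. The means were 1919 ± 368 CPM (SD, n = 3) in controls and 229 ± 337 CPM (SD, n = 5) in Perthes. SLC4A1 thus had a log2 fold change of -3.07 (SE 1.20) and an edgeR adjusted p of 0.114.

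EPB42, or protein 4.2, is a transglutaminase-like protein without enzyme activity that stabilises the contact of band 3 with ankyrin. Its control levels were 289, 237 and 214 CPM, and the Perthes rabbits 1 to 5 had 0.811, 97.8, 18.5, 20.2 and 3.30 CPM. EPB42 had the lowest log2 fold change of the group at -3.14 (SE 1.11), with an edgeR adjusted p of 0.0877. Its standard error overlapped those of the other genes of the ankyrin complex.

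RHAG, the Rh-associated glycoprotein, carries the Rh complex and passes ammonia and carbon dioxide. In controls it was at 105, 90.9 and 90.2 CPM, the narrowest control range of the 9 genes. In Perthes rabbits 1 to 5 it was at 0.473, 55.2, 7.23, 8.004 and 1.53 CPM, and the value of rabbit 1 rested on 14 counts. The log2 fold change was -2.72 (SE 1.13) and the edgeR adjusted p was 0.133, the highest of the 9 genes.

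At the actin nodes, EPB41 encodes protein 4.1, which strengthens the binding of spectrin to actin. EPB41 was at 464, 645 and 575 CPM in controls and at 36.7, 258, 71.5, 65.3 and 38.1 CPM in Perthes rabbits 1 to 5. Here rabbit 1 was almost level with rabbit 5, and the Perthes rabbits spanned 7.03-fold. The mean was 562 ± 91.3 CPM (SD, n = 3) in controls and 93.8 ± 92.9 CPM (SD, n = 5) in Perthes, and EPB41 passed the test with a log2 fold change of -2.58 (SE 0.61) and an edgeR adjusted p of 0.0251.

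ADD2 encodes beta adducin, which caps the actin filaments and recruits spectrin to them. It was at 155, 132 and 109 CPM in controls and at 32.8, 61.3, 22.9, 27.1 and 35.8 CPM in Perthes rabbits 1 to 5. ADD2 had the smallest log2 fold change in size and the smallest fold range among the Perthes rabbits of the 9 genes, with means of 132 ± 23.1 CPM (SD, n = 3) and 36.0 ± 15.0 CPM (SD, n = 5). It passed the test with a log2 fold change of -1.88 (SE 0.30) and an edgeR adjusted p of 0.0122. It was the 1 gene for which rabbit 1 was not the lowest animal.

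DMTN, or dematin, bundles actin, and TMOD1, or tropomodulin, caps the slow-growing end of the filaments. DMTN was at 100.2, 92.6 and 74.4 CPM in controls and at 1.18, 40.7, 9.22, 8.404 and 2.31 CPM in Perthes rabbits 1 to 5, with a log2 fold change of -2.85 (SE 0.91) and an edgeR adjusted p of 0.0638. TMOD1 was at 38.7, 39.5 and 23.6 CPM in controls and at 1.01, 20.3, 4.74, 4.15 and 2.31 CPM in Perthes rabbits 1 to 5, with a log2 fold change of -2.39 (SE 0.78) and an edgeR adjusted p of 0.0675. The groups came closest for TMOD1, where the lowest control was 1.17 times the highest Perthes rabbit.

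The count of members past the threshold depended on the test and on single rabbits. With DESeq2 at an adjusted p below 0.05, 6 of 9 members were lower, against 11.0% of all genes it tested, and RHAG, ANK1 and SPTB were the members left out. At the study's thresholds for DESeq2, a log2 fold change below -2 and an adjusted p below 1e-05, 0 of 9 members passed, against 0.544% of genes. The study reported more genes past these thresholds in each direction than this fit gave. The count of 0 of 9 thus belongs to this fit. All 9 members had DESeq2 adjusted p-values between 1.68e-06 (ADD2) and 0.113 (RHAG). An exact two-sided permutation test on each gene gave 0.0357 for all 9, which is the smallest p that the 56 divisions of the 8 libraries into 5 and 3 can give.

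Rabbit 2 was the highest Perthes animal for 9 of 9 genes and rabbit 1 the lowest for 8, in each case followed by rabbit 5. Rabbits 3 and 4 lay between these, with rabbit 4 above rabbit 3 for 4 of the 8 genes and below it for the other 4. Expressed as a percentage of the control mean, the median over the 9 genes was 0.495% in rabbit 1, 1.60% in rabbit 5, 7.78% in rabbit 3, 8.38% in rabbit 4 and 45.9% in rabbit 2. Rabbit 2 alone contributed from 34.1% (ADD2) to 76.2% (RHAG) of the summed Perthes CPM of a gene. When rabbit 2 was left out, all 9 members passed the edgeR test, against 10.7% of tested genes in the lower direction, and the log2 fold changes then lay between -4.57 (SPTB) and -2.16 (ADD2). Without control rabbit 1 or control rabbit 2, in contrast, 0 of 9 members passed with edgeR (5 and 6 had an unadjusted p below 0.05), against 1.18% and 0.00% of all tested genes. The edgeR adjusted p was then 0.0504 and 0.0519 for ADD2 and 0.0729 and 0.083 for EPB41. Without Perthes rabbit 3 or 5 the count of members was 1, against 4.25% and 3.61% of all tested genes.

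**Figure D2:**
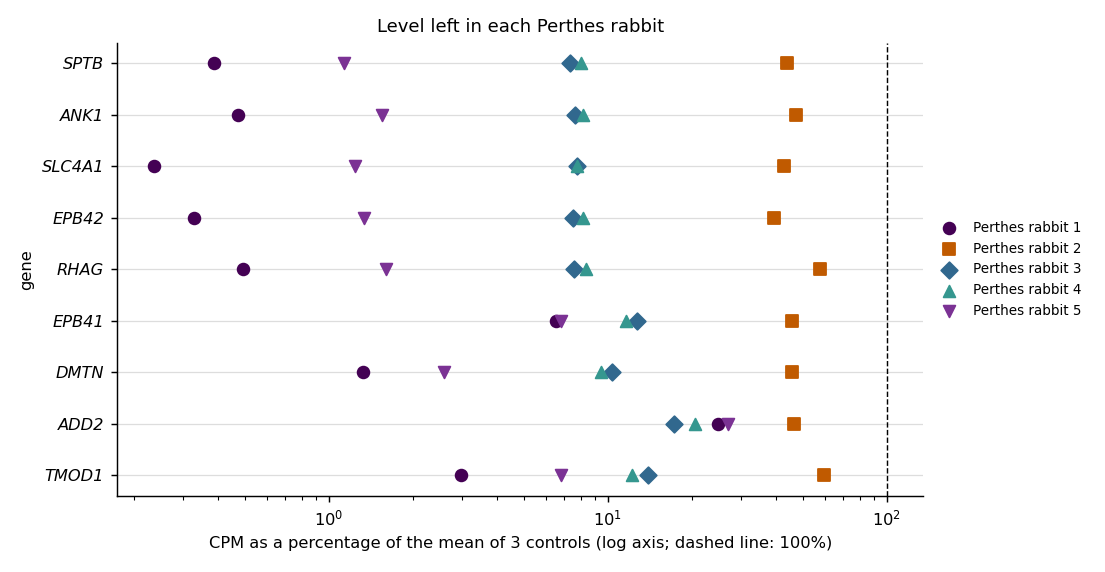
CPM of each gene in each of the 5 Perthes rabbits as a percentage of the mean of the 3 controls, on a log axis, with a dashed line at 100%. Rabbit 2 lies between 39.6% and 59.8% for all 9 genes, whereas rabbit 1 runs from 0.236% for SLC4A1 to 24.8% for ADD2.

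The genes differed in how much was left in the rabbits with the lowest levels. In rabbit 1, SLC4A1, EPB42, SPTB, ANK1 and RHAG were between 0.236% and 0.495% of the control mean, DMTN was at 1.33% and TMOD1 at 2.98%, and EPB41 and ADD2 were at 6.53% and 24.8%. Rabbit 5 had a similar split, with 1.14% to 1.60% for the spectrin and ankyrin complex genes and 2.60% for DMTN. In that rabbit TMOD1 at 6.82% was level with EPB41 at 6.78%, and ADD2 was at 27.1%. Rabbit 2 showed no such split, its range being 39.6% (EPB42) to 59.8% (TMOD1).

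Counts of different genes from the same library are independent of library scaling, so the members were also set against SLC4A1 within each rabbit. A ratio of this kind depends on transcript lengths and was read across libraries only. EPB42 stood at 12.5 to 13.7 counts per 100 SLC4A1 counts in controls and at 11.9 to 13.8 in Perthes rabbits 2 to 5. In rabbit 1 it was at 17.9, with an exact 95% interval of 11.1 to 27.8 that covers counting error only, so that a shift from the controls was not detectable at this depth.

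SPTB stood at 31.3 to 35.5 counts per 100 SLC4A1 counts in Perthes rabbits 2 to 5, against 32.4 to 36.8 in controls. ANK1 was at 23.9 to 30.6 in these rabbits, against 23.0 to 25.8 in controls, with rabbits 2 (27.2) and 5 (30.6) above the controls. In rabbit 1, SPTB and ANK1 stood higher, at 56.7 (interval 42.2 to 75.7) and 49.3 (interval 36.1 to 66.6). TMOD1 was at 1.52 to 2.08 in controls and at 2.48, 3.17, 2.79, 9.67 and 22.4 in Perthes rabbits 2, 3, 4, 5 and 1. DMTN was at 4.36 to 4.87 in controls and at 4.97, 6.17, 5.65, 9.67 and 26.1 in Perthes rabbits 2, 3, 4, 5 and 1. All 5 Perthes rabbits were thus above the controls for TMOD1 and for DMTN. For DMTN in rabbit 2, however, the interval of 4.67 to 5.28 included the highest control, so a shift there was not detectable.

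ADD2 was the most constant in controls and the most changed in Perthes on this measure. It was at 6.76, 6.97 and 6.98 counts per 100 SLC4A1 counts in controls and 7.48 in Perthes rabbit 2. It was at 15.3, 18.2, 149.5 and 724 in rabbits 3, 4, 5 and 1. The ratio was higher where less SLC4A1, its divisor, was left, and in rabbit 1 it exceeded the highest control 104-fold. EPB41 was also above its control range of 20.2 to 36.9 in rabbits 3, 4, 5 and 1, where it was at 47.8, 43.9, 159 and 810.4.

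**Figure D3:**
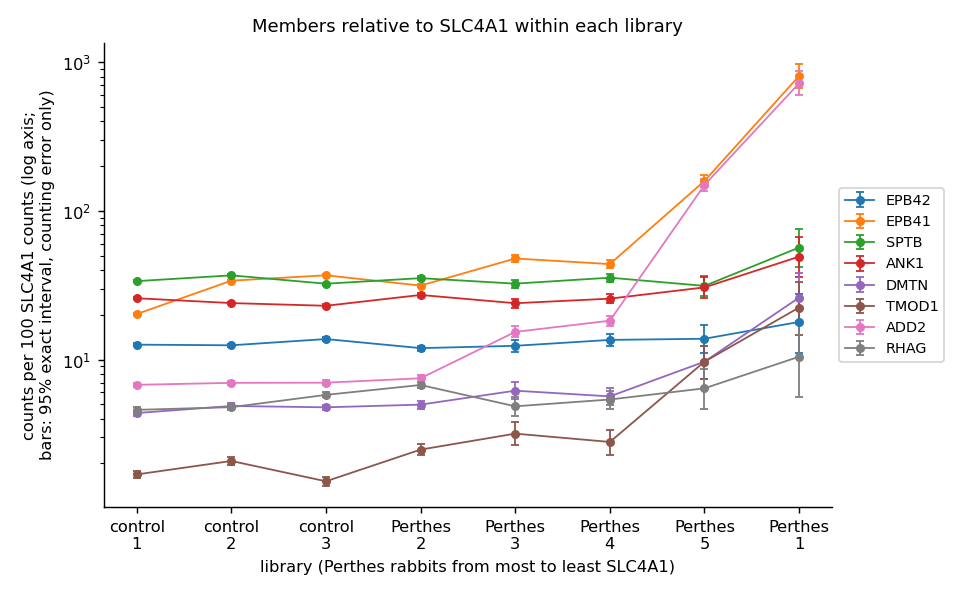
Counts of each of 8 genes per 100 counts of SLC4A1 in the same library, on a log axis, with 95% exact intervals that cover counting error only. Perthes rabbits are ordered from most to least SLC4A1, and the lines for ADD2, EPB41, TMOD1 and, less steeply, DMTN turn upwards at rabbits 5 and 1, while EPB42 stays between 11.9 and 13.8 up to rabbit 5.

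Whether a gene moved unequally was tested on its log2 ratio to the mean of the other 8 members. For ADD2 this ratio was -0.93, -1.04 and -1.02 in controls and 3.86, -1.03, -0.07, 0.17 and 2.59 in Perthes rabbits 1 to 5. The mean difference was 2.10, the groups overlapped through rabbit 2, and the exact two-sided permutation p was 0.107 (0.161 after adjustment over the 9 members). SLC4A1 and EPB42 were lower than the others by 1.00 and 0.87 on the log2 scale and TMOD1 was higher by 0.87, each with an exact permutation p of 0.0357 and an adjusted value of 0.107. For DMTN the difference from the mean of the others was -0.01. No member passed the threshold on this ratio after adjustment (0 of 9), and 3 had an unadjusted p below 0.05. At least 7 members would have needed the smallest possible p to pass after adjustment, so this count says little about whether the members moved equally. The sizes depended on rabbit 1: without it the differences were -0.59 for SLC4A1, -0.58 for EPB42, 0.70 for TMOD1 and 1.41 for ADD2.

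Marker levels of other cell types also differed among the rabbits. Macrophage markers (6 of 10 listed and tested, 4 of them higher in Perthes) summed to 1539.6, 873, 1188, 433 and 1474 CPM in Perthes rabbits 1 to 5 and to 352 to 409 CPM in controls. Rabbits 1 and 5, with the most ADD2 and EPB41 relative to SLC4A1, thus had the most macrophage marker RNA. The other Perthes rabbits did not follow this order, as rabbit 4 had the least macrophage marker RNA. Its ADD2 was at 18.2 counts per 100 SLC4A1 counts, against 7.48 and 15.3 in rabbits 2 and 3. Among the macrophage markers, MARCO had a negative log2 fold change (-2.19, SE 0.66, edgeR adjusted p 0.0542). Neutrophil markers, of which 1 of 5 tested was called lower, summed to 14.2 to 1009.9 CPM in Perthes and 3490 to 12966 CPM in controls. Megakaryocyte markers, of which 2 of 8 tested were called lower, summed to 33.7 to 206 CPM in Perthes and 278 to 667 CPM in controls. The shares over all tested genes were 8.86% lower and 6.21% higher. VWF, also an endothelial marker, was the only megakaryocyte marker with a positive log2 fold change, at 1.59 (SE 0.50, edgeR adjusted p 0.0606). It made up 49.7 of the 56.5 CPM of Perthes rabbit 1 and 95.7 of the 137 CPM of rabbit 3. The counts of markers called rested on single rabbits. Without control rabbit 1 or 2 none of the 3 marker lists had a call (0 of 6, 0 of 5 and 0 of 8). Without Perthes rabbit 1, 3 or 5 or control rabbit 3 the macrophage markers called higher numbered 1. Without Perthes rabbit 1, 4 of 5 neutrophil and 6 of 8 megakaryocyte markers were lower, and without Perthes rabbit 2 the megakaryocyte markers called lower numbered 7. Megakaryocyte calls in the lower direction were 0 or 1 without Perthes rabbit 3, 4 or 5 or control rabbit 3, and neutrophil calls were 0 without Perthes rabbit 3, Perthes rabbit 5 or control rabbit 3 and 2 without Perthes rabbit 4. The part of these cells in the membrane gene results was not tested.

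Of 10 muscle markers, which could accompany ANK1 or TMOD1 from skeletal muscle, 4 were present and 2 were tested. The 4 summed to 0.524 to 2.45 CPM in Perthes and 0.388 to 9.55 CPM in controls. TTN, a striated muscle gene outside that list, was above these sums in controls, with a mean of 24.1 CPM. TTN was lower in Perthes, with a log2 fold change of -1.49, but its groups overlapped and edgeR did not call it. A muscle part in the levels of ANK1 and TMOD1 was not tested. Endothelial markers overlapped, at 349 to 507 CPM in Perthes and 370 to 439 CPM in controls.

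The protein families of the 9 genes include relatives that are expressed in many cell types. Of 31 tested relatives, 0 were called lower and 2 were called higher with edgeR, against 8.86% and 6.21% of all tested genes. The median log2 fold change of the relatives was 0.09. SPTBN1, the widely expressed beta spectrin, was at 318 to 391 CPM in controls and 300.0 to 382 CPM in Perthes, with a log2 fold change of -0.03 (SE 0.17). ADD1, the alpha subunit with which ADD2 forms adducin, had a log2 fold change of -0.14 (SE 0.19), and TMOD3, which caps actin in most other cells, of -0.11 (SE 0.30). ANK3, EPB41L2, SLC4A2 and TGM2 had log2 fold changes of -0.38, 0.26, 0.66 and 0.08, and the edgeR adjusted p-values of all 7 relatives lay between 0.104 and 0.919.

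**Figure D4:**
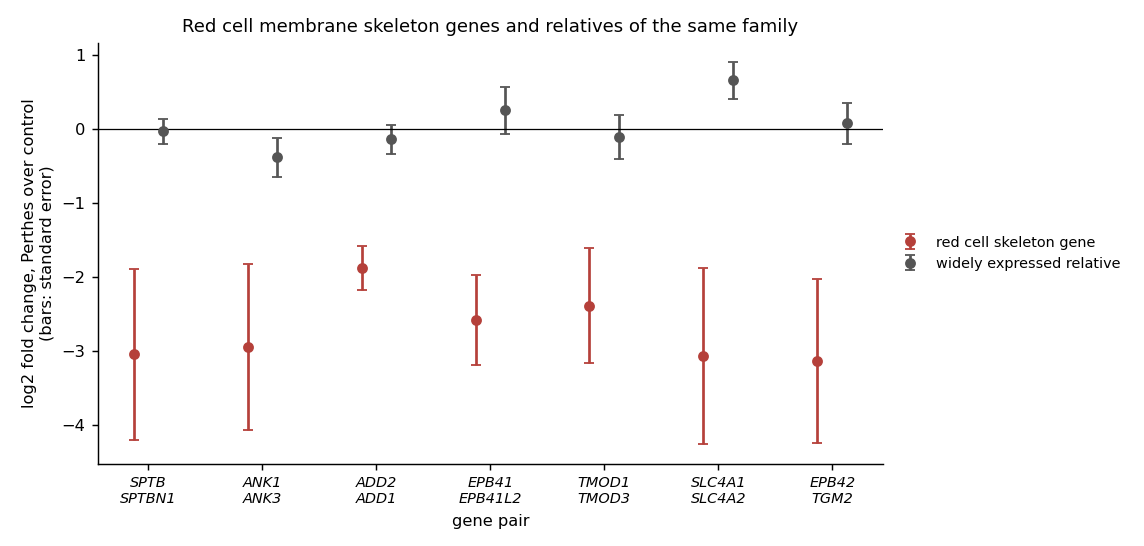
Log2 fold change of Perthes over control with its standard error for 7 red cell membrane skeleton genes (red) and for a more widely expressed gene of the same family (grey). The red points lie between -3.14 and -1.88 and the grey points between -0.38 and 0.66.

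The difference between each member and its relative was tested directly on their log2 ratio within a library. In 7 of 8 pairs the ratio was lower in every Perthes rabbit than in every control, with an exact two-sided permutation p of 0.0357 and 0.0408 after adjustment over the pairs. The log2 ratio of SLC4A1 to SLC4A2, the anion exchanger of other tissues, was 4.61, 3.82 and 3.44 in controls and -4.72, 1.94, -0.44, -0.46 and -3.31 in Perthes rabbits 1 to 5, a mean difference of -5.36. The mean differences of the other pairs past the threshold were -4.61 (EPB42 to TGM2), -4.55 (SPTB to SPTBN1), -4.01 (ANK1 to ANK3), -3.34 (EPB41 to EPB41L2), -2.85 (TMOD1 to TMOD3) and -1.81 (ADD2 to ADD1). For RHAG the adjusted p was 0.0714, and its relative RHCG was too low to be tested by itself.

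The adducin pair was the least variable among the Perthes rabbits. The log2 ratio of ADD2 to ADD1 was 0.15, 0.29 and 0.18 in controls and -1.49, -1.08, -2.28, -1.68 and -1.49 in Perthes rabbits 1 to 5. Unlike the ratios of the other pairs, it did not follow the amount of SLC4A1 left, since rabbits 1 and 5, with the least SLC4A1, were within the range of the other Perthes rabbits.

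The relatives called higher were a transporter and an actin-binding protein. SLC4A4, a sodium bicarbonate cotransporter, had a log2 fold change of 2.09 (SE 0.54, edgeR adjusted p 0.0339), and ABLIM3, an actin-binding LIM protein that shares the dematin headpiece, of 1.67 (SE 0.47, edgeR adjusted p 0.0460). For both genes the groups overlapped, since Perthes rabbit 4 lay within the control range. The count of 2 was 3 without Perthes rabbit 2, 1 without Perthes rabbit 1 and 0 without Perthes rabbit 3, Perthes rabbit 5, control rabbit 1 or control rabbit 2. VIL1, or villin, is another headpiece protein, named here after its values were seen because it was the 1 relative with all Perthes rabbits below all controls. It was at 50.9, 50.4 and 41.5 CPM in controls and at 0.743, 22.6, 3.97, 3.24 and 1.12 CPM in Perthes rabbits 1 to 5, with a log2 fold change of -2.91 (SE 0.93) and an edgeR adjusted p of 0.0634.

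Of 30 other genes of the red cell membrane that were listed, 22 were present and tested. Among these, 8 were lower and 0 higher with edgeR, against 8.86% and 6.21% of all tested genes. Their median log2 fold change was -0.95. Every Perthes rabbit was below every control for 12 of them, against 13.9% of all tested genes. GYPC, glycophorin C, anchors protein 4.1 in the membrane and was lower in Perthes, with a log2 fold change of -2.07 (SE 0.45) and an edgeR adjusted p of 0.0192.

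XK, which carries the Kell protein, was at 44.3 to 47.7 CPM in controls and at 2.31 to 21.8 CPM in Perthes (log2 fold change -2.58, SE 0.63, edgeR adjusted p 0.0272). ICAM4, an adhesion protein of red cell precursors, was called lower as well (log2 fold change -3.01, SE 0.77, edgeR adjusted p 0.0324), but its mean was only 1.08 CPM in controls. ACKR1, the Duffy antigen, had a log2 fold change of -2.54 (SE 0.47, edgeR adjusted p 0.0139). The count of 8 fell to 0 without control rabbit 2 and to 1 without control rabbit 1, and rose to 11 without Perthes rabbit 2. It was 3 or 4 without Perthes rabbit 5 or 3, and 6, 6 and 5 without Perthes rabbit 1, Perthes rabbit 4 or control rabbit 3.

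**Figure D5:**
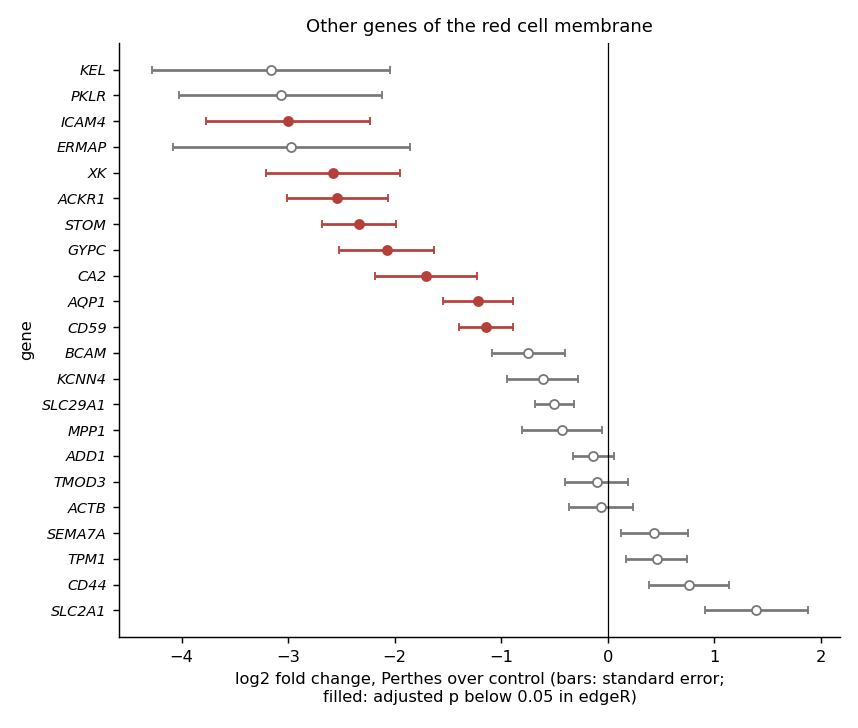
Log2 fold change of Perthes over control with its standard error for the 22 tested genes of the red cell membrane outside the 9, with filled red points where the edgeR adjusted p was below 0.05. The 8 filled points all lie below 0, and the genes above 0, such as SLC2A1 and CD44, have open points.

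A list of genes of red cell development was taken for reference. Of 19 tested genes, which include KEL from the membrane list above, 9 were lower and 0 higher with edgeR. These shares were 8.86% and 6.21% over all tested genes. All 19 had every Perthes rabbit below every control, against 13.9% of all tested genes, and the median log2 fold change was -2.81. SLC25A37, the mitochondrial iron importer, had a log2 fold change of -2.87 (SE 0.62, edgeR adjusted p 0.0192), and FECH, the last enzyme of haem synthesis, of -2.81 (SE 0.73, edgeR adjusted p 0.0334). BPGM, which makes the red cell effector of oxygen release from haemoglobin, had a log2 fold change of -2.57 (SE 0.69, edgeR adjusted p 0.0365). HBB2, a beta-like globin gene added after its values were seen, was at 26951, 36817 and 21065 CPM in controls and at 464, 17934, 2926, 1989.9 and 724 CPM in Perthes rabbits 1 to 5. Its order, with rabbit 1 lowest and rabbit 2 highest, was that of 4 of the 9 genes, and its log2 fold change was -2.56 (SE 1.05, edgeR adjusted p 0.128). The count of 9 was 0 to 7 when any rabbit other than Perthes rabbit 2 was left out, with 0 without control rabbit 2 and 1 without control rabbit 1, and it was 18 without Perthes rabbit 2.

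Among named tested genes outside the lists, the profile most like that of the 9 genes over the 8 libraries was that of MPP2. It is a scaffold protein of the family of the red cell protein p55. The gene of p55 itself, MPP1, had a log2 fold change of -0.43 (SE 0.37, edgeR adjusted p 0.460), and its groups overlapped. For MPP2, Pearson's r was 0.998 between its log2 CPM and the mean of the members' standardised values. SLC43A1, SLC10A4, E2F2, MYLK3, TST, PIP5K1B, HBQ1, TMCC2 and NMNAT3 followed, with r of 0.997 to 0.995. E2F2 is a cell cycle transcription factor of late red cell precursors and HBQ1 is theta globin. The profile was shared widely, as 468 genes other than the members had an r above 0.95. The 10 named genes were picked for their r over these same 8 libraries. After removal of the group means their r was 0.987 to 0.999, which is not independent of that choice. Among the members, ADD2 had the lowest r to the mean of the others at 0.833 (the r of ADD2 to the mean of all 9 members, with the group means removed, was 0.505), EPB41 was at 0.972 and the other 7 lay between 0.983 and 0.998.

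The annotation in the deposited table names hereditary spherocytosis for SPTB, ANK1 and SLC4A1, hereditary elliptocytosis for EPB41, SPTB and SLC4A1, and hereditary stomatocytosis for SLC4A1 and RHAG. These annotations extend to family relatives. Outside the 9 genes, the 9 other tested genes annotated with spherocytosis had a median log2 fold change of 0.09, with 0 called lower or higher, and the 10 others annotated with elliptocytosis had a median of 0.25, with 0 called. The 4 others annotated with stomatocytosis had a median of 0.39, with 1 called lower and 1 called higher. For all tested genes these shares were 8.86% lower and 6.21% higher.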

How the data were processed

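Total RNA of the femoral head was sequenced from 5 Perthes and 3 control rabbits. Per the labels and the study's methods, the authors depleted ribosomal RNA, prepared directional libraries, and aligned reads to a rabbit assembly with HISAT2 (2.0.4). The submitters' processing notes also list RSEM (1.1.17) and HTSeq (1.99.2). The table deposited by the authors holds expected counts per gene, which need not be whole, and these were rounded. Reads shared between near-identical genes are divided by such estimates, and whether strand was used in counting was not stated. A further 8 count columns with the same sample codes, whose difference from the first 8 was not stated, and the 8 small RNA libraries were not used.

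Counts were scaled with TMM factors, filtered by group with filterByExpr and tested with edgeR 4.0.16 (quasi-likelihood test, Benjamini-Hochberg adjustment over 15305 genes, threshold 0.05, R 4.3.3). CPM values are TMM-scaled, and log2 ratios used a prior count of 2. Ratios were tested by exact two-sided permutation over 56 divisions (scipy 1.17.1). The pipeline was tested on simulated data. Alternatives were DESeq2 1.42.0 (the study used an earlier version), other scalings and filters, a replicate block and leaving out each rabbit. The labels state no pairing of Perthes with control rabbits by replicate number. Deviations of same-numbered libraries had r of -0.317 to 0.161, against -0.314 to 0.435 for the 12 other combinations. With 3 same-numbered pairs this check showed no pairing but cannot exclude it. The title of the third control repeats replicate number 2, and its code 3 was used.

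The members and gene lists were chosen with earlier results of these data known. All 9 members are named. VWF, MARCO, MPP1 and TTN were named after their values were seen. From each list the 3 genes with the largest fold changes past the threshold in each direction are named, with GYPC and the paired relatives, and the 10 genes outside the lists with the highest Pearson r to the members. Some planned list genes are not reported here and were left out of the list counts. KEL stands in both the membrane and the red cell development lists, and TMOD3 and ADD1 in both the membrane and the relatives lists. Intervals cover counting error only. Promoter and protein sequences were not analysed here.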

Additional observations from a re-analysis of the deposited data

Results flagged for a closer look

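For 8 of the 9 genes the highest Perthes rabbit stood far from the other 4 on the CPM scale, and in each case this was rabbit 2. The gap between rabbit 2 and the next rabbit, divided by the range of the 5 rabbits, was 0.862 for RHAG, 0.843 for EPB41, 0.837 for ANK1, 0.824 for SPTB, 0.822 for SLC4A1, 0.807 for TMOD1, 0.800 for EPB42 and 0.797 for DMTN. Dixon's 95% critical value for 5 samples is 0.71, and chance places about 1 in 20 groups of normally distributed values beyond it. CPM values that span many-fold need not be so distributed, and the gaps were not examined on a log scale. The 8 gaps are not independent, since the same rabbit gives all of them, and 26 groups of values were examined. ADD2 did not pass this value.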

How the results depend on the processing

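All 153 log2 fold changes of the 9 members under the alternatives were negative, and the counts of calls moved more than the fold changes. With DESeq2, 1700 genes were higher, in place of 951, and 6 members lower. With DESeq2 at the study's thresholds (log2 fold change past 2, adjusted p under 1e-05), 95 genes were lower, 101 higher and 0 members lower (9 at an unadjusted p below 0.05). The study reported more genes in both directions at these thresholds, and the reason for the difference was not tested. The same thresholds with edgeR, added after seeing the data, gave 0 lower, 0 higher and 0 members (2538, 2345 and 9 at an unadjusted p below 0.05 with edgeR). The fit with the replicate number as a replicate block gave 0 lower, 0 higher and 0 members (1648, 1504 and 4 at an unadjusted p below 0.05 with edgeR), with adjusted p of 0.120 for EPB41 and 0.115 for ADD2. The labels give no shared litter or day for these numbers. When each rabbit was left out in turn, genes lower numbered 0 to 1628, genes higher 0 to 1267 and members 0 to 9. Both counts of genes were 0 without control rabbit 2 (2098 and 1624 at an unadjusted p below 0.05 with edgeR). The adjusted p of ADD2 was then 0.0519, and that of EPB41 0.083. The causes were not tested. The log2 ratio of a member to the others kept its direction in 78 of 81 values and that to its relative in 72 of 72. With 1 rabbit left out the permutation p cannot go below 0.0571 or 0.0952, so those calls could not be repeated. Depth limits the lowest values most, such as the 14 counts of RHAG in Perthes rabbit 1.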

Other observations

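Genes annotated with actin binding in the deposited table numbered 161 among those tested, including EPB41, SPTB, DMTN, TMOD1 and ADD2. Of the 156 others, 10 were lower and 16 higher with edgeR, against 8.86% and 6.21% of all tested genes. Their median log2 fold change was 0.13. Of the 9 tested genes other than ANK1, DMTN and ADD2 that are annotated with spectrin binding, 0 were called lower or higher, and their median log2 fold change was 0.09.

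Counts with edgeR are given here for marker lists of the other cell types of the femoral head. Over all tested genes, 8.86% were lower and 6.21% higher. Of 10 osteoclast markers 2 were higher, of 10 fibroblast markers 3 were higher, of 8 tested lymphocyte markers 1 was lower, of 10 endothelial markers 1 was lower, and of 10 osteoblast, 9 chondrocyte and 2 muscle markers 0 were called in either direction. Perthes rabbit 4 had the most chondrocyte marker RNA, at 155031 CPM summed against 47349 to 69305 CPM in controls. Its membrane skeleton genes were close to those of rabbit 3, which had 82121 CPM. A relation between chondrocyte marker RNA and the membrane skeleton genes was not tested.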
